A study of Homo sapiens with 6 samples.

Results

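Transcripts of 10 BCL2 family genes that set the threshold for mitochondrial cell death were read out of RNA sequencing of SW1353 cells, an established human chondrosarcoma line. They were chosen by name and matched to the gene symbols of the deposited table, and all 10 were found among its 60691 genes. The survival genes were BCL2, BCL2L1, BCL2L2 and MCL1, the pore-forming genes BAX and BAK1, and the BH3-only genes BCL2L11, BMF, BID and PMAIP1. All 10 also passed the filter on low counts.

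The 6 libraries formed 2 groups of 3 biological replicates. Every library came from cells transduced with a short hairpin RNA and held in 3% oxygen for 48 h after seeding, so no group in normal oxygen or without a hairpin was analysed here. The vector is not given in the sources used here. One group, shfirefly, carried a hairpin RNA against firefly luciferase, which human cells lack. In the other, shSIRT1, the hairpin was labelled with SIRT1, the gene of a deacetylase that consumes NAD+. The labels disagree on its target: SIRT1 stands in titles, treatment fields and the design, and EPAS1, the gene of HIF-2α, in the treatment protocol. The labels do not say how many hairpin sequences were used, so an effect of the sequence cannot be told apart from that of its target. The comparison addressed how SIRT1 relates to HIF-2α-driven transcription and to chondrosarcoma malignancy.

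Proteins of the BCL2 family meet at the outer mitochondrial membrane. Survival members hold BAX and BAK1 inactive, and BH3-only proteins, which are produced or activated under stress, occupy the groove of the survival proteins or activate BAX and BAK1 directly. When BAX and BAK1 form pores, cytochrome c leaves the mitochondrion and caspases are activated. Several of these proteins are controlled mainly after transcription, MCL1 by rapid degradation and BID by cleavage, so transcript levels describe 1 layer of control only.

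Total counts ran from 24993064 to 32044191 per library, and levels are given as CPM, counts divided by library sizes that were scaled by the TMM method. A count of 0 allows a level of up to 0.0968 to 0.115 CPM, depending on the library (3 counts; counting error only). SIRT1 was 24.0 to 26.0 CPM in shfirefly and 12.9 to 14.7 CPM in shSIRT1, and EPAS1 was 409 to 483 and 226 to 245 CPM, so both named targets were lower in every shSIRT1 library. Of 10 cartilage markers 3 averaged at least 1 CPM: SOX9 had a mean of 43.7 CPM in shfirefly, and the cartilage genes COL9A1 and CNMD had no counts in any library. The 5 leukocyte markers summed to at most 0.912 CPM in any library and the 5 endothelial markers to at most 3.97 CPM. Epithelial markers summed to 308 to 319 CPM in shfirefly and 356 to 373 CPM in shSIRT1, nearly all of it KRT8 and KRT18. On average KRT18 rose from 253 to 304 CPM, while KRT8 stood at 60.1 CPM in shfirefly and 58.0 CPM in shSIRT1. EPCAM and CDH1 averaged under 1 CPM in both groups. Mesenchymal markers, of which 4 of 6 averaged at least 1 CPM, summed to 13048 to 13981 CPM in shfirefly and 10267 to 10322 CPM in shSIRT1. Cartilage markers summed to 46.8 to 52.4 and 57.6 to 60.6 CPM. Among them SOX9 rose to a mean of 53.1 CPM and MATN3 from 3.78 to 4.81 CPM, while ACAN fell from 1.51 to 0.679 CPM. The part of these shifts in the results below was not tested. Across all 16591 genes tested, 52.8% passed an adjusted p of 0.05 (edgeR quasi-likelihood test, Benjamini-Hochberg adjustment), 26.8% higher and 26% lower in shSIRT1. Counts of members and of the further lists are to be read against these shares.

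Upstream sequence is shown for the largest fall, BMF, and for 2 BH3-only genes that went the other way, BCL2L11 and PMAIP1, because the study concerned a hypoxia-inducible factor. Each run is the stretch before the RefSeq transcript start (GRCh38.p14), 5′ to 3′ on the gene's strand, without bases that GENCODE 29 annotates as exon of the gene. Capitals mark the HIF core, ACGTG or GCGTG on either strand (CACGT or CACGC as printed on the opposite strand). BMF lies at chr15:40108893-40109129 (reverse strand), BCL2L11 at chr2:111120664-111120913 (forward strand) and PMAIP1 at chr18:59899746-59899947 (forward strand).
BMF: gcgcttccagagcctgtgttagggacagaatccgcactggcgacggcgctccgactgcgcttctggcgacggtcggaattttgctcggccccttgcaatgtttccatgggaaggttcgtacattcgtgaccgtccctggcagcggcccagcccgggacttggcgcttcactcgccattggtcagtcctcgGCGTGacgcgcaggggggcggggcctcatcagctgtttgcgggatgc
BCL2L11: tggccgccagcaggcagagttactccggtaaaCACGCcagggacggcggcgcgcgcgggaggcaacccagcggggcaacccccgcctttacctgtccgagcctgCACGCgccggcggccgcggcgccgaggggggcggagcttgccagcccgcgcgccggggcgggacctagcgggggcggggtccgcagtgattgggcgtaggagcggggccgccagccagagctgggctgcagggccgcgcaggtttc
PMAIP1: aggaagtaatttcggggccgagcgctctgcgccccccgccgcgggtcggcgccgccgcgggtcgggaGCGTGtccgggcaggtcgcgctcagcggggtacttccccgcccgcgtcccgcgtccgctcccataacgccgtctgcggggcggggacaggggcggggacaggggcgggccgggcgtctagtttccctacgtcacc
A HIF core stood 1 time in the BMF stretch, 2 times in that of BCL2L11 and 1 time in that of PMAIP1 (a further match there lay in the exon bases left out), so these 3 stretches did not differ in holding it. A further BMF window, at an internal transcript start (chr15:40106967-40107216), held 0 matches and is not printed. In the untrimmed windows of 250 bases, 9 of the 14 windows listed for 8 members had a match, and 43.2% of all 35116 promoter windows of that length did. Windows of 1 gene overlap in part, so they are not independent. No member window held the E2F motif TTTCGCGC or TTTGGCGC (0.968% of all windows) or the C/EBP-ATF motif TGATGNAAT (0.888%), searched on both strands. MCL1 and BCL2L2 had no window.

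Among the 10 members, 5 rose, 2 fell and 3 did not pass the test. BCL2, BAK1, BID, BCL2L11 and PMAIP1 were higher in shSIRT1, MCL1 and BMF were lower, and BCL2L1, BCL2L2 and BAX did not pass. The share that passed, 7 of 10, stands beside the 52.8% of all genes tested, and the median log2 fold change of the 10 was 0.08, beside 0.00468 for all genes. For 8 of the 10 no shSIRT1 library fell inside the shfirefly range, 5 higher and 3 lower, and for all genes the same held for 59.7%, 30.4% higher and 29.4% lower. Survival and BH3-only genes went both ways: of the 4 survival genes 1 rose and 1 fell, and of the 4 BH3-only genes 3 rose and 1 fell. Of the 2 pore-forming genes 1 rose and none fell. In bulk RNA, fewer cells with a transcript and less transcript per cell cannot be told apart.

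**Figure D1:**
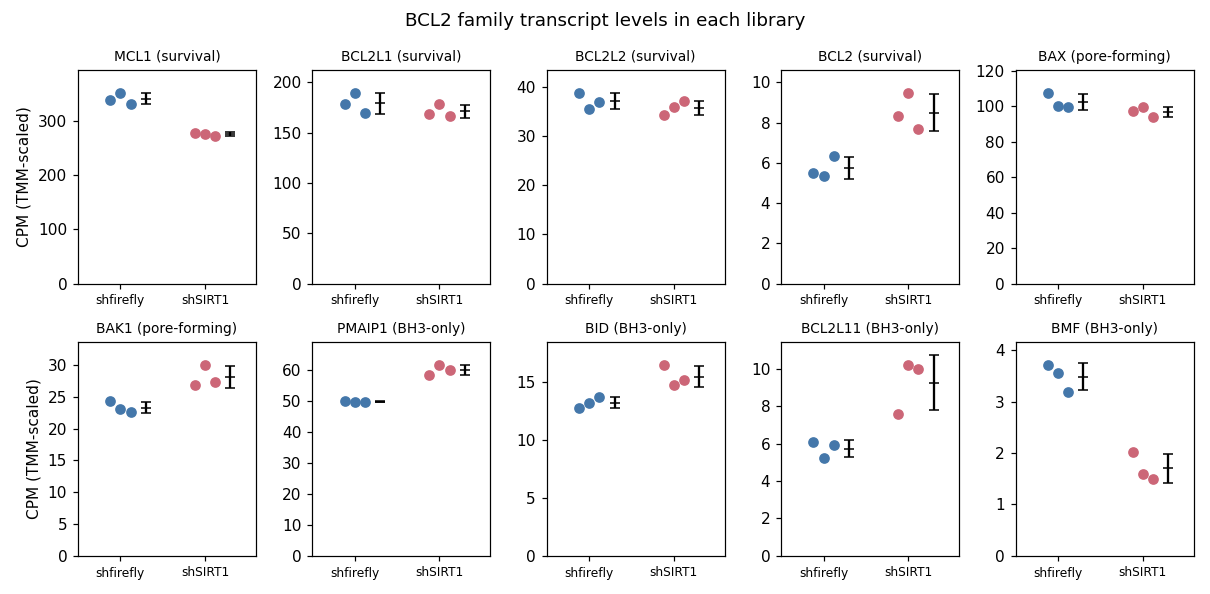
CPM of each BCL2 family gene in each library (points, y axis from 0), with mean and SD of each group (bars, n = 3). MCL1 and BMF sit lower and BCL2, BAK1, PMAIP1, BID and BCL2L11 higher in all 3 shSIRT1 libraries than in any shfirefly library.

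Of the survival genes, MCL1 had the most counts, 30256 in shfirefly and 24167 in shSIRT1, before BCL2L1 with 15854 and 15000. MCL1 encodes a short-lived protein that binds BAK1 and most BH3-only proteins. It stood at 339.6, 353 and 332 CPM in shfirefly and at 279, 276 and 273 CPM in shSIRT1. All 3 shSIRT1 values lay below the lowest control, and the groups did not overlap. The fall was 1.24-fold (341 ± 10.6 to 276 ± 3.24 CPM, SD, n = 3; adjusted p = 3.1e-07, with a log2 fold change of -0.31 ± 0.04 SE), a size near the middle of the transcriptome, since 53.3% of tested genes had an absolute log2 fold change no larger. The gene lies on chromosome 1 (150574551 to 150579738, reverse strand, GRCh38) and shares exon sequence with the same-strand gene ADAMTSL4-AS1, which had 37 counts in shfirefly and 23 in shSIRT1 over 3 libraries each.

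BCL2, the founding survival gene of the family, moved in the opposite direction at a far lower level. Its values were 5.50, 5.36 and 6.36 CPM in shfirefly and 8.31, 9.49 and 7.68 CPM in shSIRT1, without overlap. That was 1.48-fold higher (5.74 ± 0.537 to 8.49 ± 0.920 CPM, SD, n = 3; adjusted p = 0.00029, with a log2 fold change of 0.57 ± 0.12 SE). BCL2 lies on chromosome 18 (63123346 to 63320128, reverse strand), and no exon of another gene overlaps its exons.

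BCL2L1, which encodes the survival protein BCL-XL and, by alternative splicing, the death-promoting BCL-XS, read 178.7, 189.7 and 169 CPM in shfirefly and 168.7, 178 and 166 CPM in shSIRT1. Its groups overlapped. The log2 fold change was -0.07 ± 0.04 SE (95% interval -0.16 to 0.03, adjusted p = 0.22), and gene counts do not separate the splice forms. It is on chromosome 20 (31664452 to 31723989, reverse strand). For BCL2L2, which encodes BCL-W, the values were 38.9, 35.7 and 37.1 CPM in shfirefly and 34.3, 35.9 and 37.2 CPM in shSIRT1. These groups overlapped as well (log2 fold change -0.06 ± 0.06 SE, 95% interval -0.18 to 0.06, adjusted p = 0.41). BCL2L2 is on chromosome 14 (23298790 to 23311759, forward strand). Its exons overlap those of the readthrough gene BCL2L2-PABPN1 (20 and 21 counts in the 2 groups) and, on the other strand, of PPP1R3E, which fell from 57.8 ± 5.73 to 28.6 ± 2.06 CPM (SD, n = 3). Whether counting used the strand is not given in the sources used here, so the value of BCL2L2 is uncertain.

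Of the pore-forming pair, BAK1 passed the test and BAX did not. BAK1, which resides in the outer mitochondrial membrane, had 24.3, 23.0 and 22.6 CPM in shfirefly and 26.8, 30.01 and 27.3 CPM in shSIRT1. Every shSIRT1 library was above every control, 1.20-fold on average (23.3 ± 0.905 to 28.1 ± 1.71 CPM, SD, n = 3; adjusted p = 0.0015, with a log2 fold change of 0.27 ± 0.07 SE). BAX, which moves from the cytosol to the mitochondrion on activation, read 107.8, 100.2 and 99.8 CPM in shfirefly and 97.4, 99.7 and 93.9 CPM in shSIRT1. Its ranges did not overlap, by a margin of less than 0.1 CPM, and the difference did not pass the test (log2 fold change -0.08 ± 0.04 SE, 95% interval -0.17 to 0.01, adjusted p = 0.13). Without shfirefly replicate 3, BAX (adjusted p = 0.042) and BCL2L1 (adjusted p = 0.026) both passed as lower. BAK1 is on chromosome 6 (33572547 to 33580293, reverse strand) and BAX on chromosome 19 (48954815 to 48961798, forward strand).

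The BH3-only genes held both the largest rise and the largest fall of the family. BCL2L11 encodes BIM, which binds every survival member and can activate BAX and BAK1. It had 6.09, 5.22 and 5.90 CPM in shfirefly and 7.56, 10.2 and 9.97 CPM in shSIRT1. The shSIRT1 libraries were all higher, replicate 1 less so than the other two. The mean rose 1.61-fold (5.74 ± 0.461 to 9.25 ± 1.46 CPM, SD, n = 3; adjusted p = 7.1e-05, with a log2 fold change of 0.68 ± 0.12 SE), a change larger in size than that of 84.2% of tested genes. BCL2L11 is on chromosome 2 (111119378 to 111168447, forward strand). Its exons overlap, on the other strand, those of the long non-coding gene MIR4435-2HG, which had 48.5 ± 0.467 CPM in shfirefly and 47.3 ± 2.04 CPM in shSIRT1 (SD, n = 3) and did not pass the test (adjusted p = 0.55). That gene had far more counts than BCL2L11, and with the strand setting not given the level of BCL2L11, its ratios and its rank per length may hold reads of it and are uncertain.

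BMF encodes a BH3-only protein that is held at the actin cytoskeleton and linked to loss of attachment. BMF counts were the lowest of the 10, at 114, 96 and 99 in shfirefly and 62, 49 and 39 in shSIRT1. As CPM these were 3.71, 3.55 and 3.19 against 2.02, 1.598 and 1.49, well apart. BMF fell 2.03-fold (3.49 ± 0.266 to 1.70 ± 0.281 CPM, SD, n = 3; adjusted p = 4.7e-05, with a log2 fold change of -1.03 ± 0.18 SE), and 93.5% of tested genes had a change no larger in size. The gene lies on chromosome 15 (40087890 to 40108892, reverse strand), and the antisense gene BMF-AS1 that overlaps its exons had 0 counts in all 6 libraries.

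PMAIP1 encodes NOXA, which binds MCL1 and promotes its degradation. In shfirefly it was nearly identical between libraries, at 49.9, 49.6 and 49.7 CPM, and in shSIRT1 it stood at 58.2, 61.6 and 59.9 CPM. The rise was 1.20-fold (49.7 ± 0.170 to 59.9 ± 1.65 CPM, SD, n = 3; adjusted p = 5e-05, with a log2 fold change of 0.27 ± 0.05 SE). When GC content and transcript length entered as an offset, it shrank to 0.11 on the log2 scale and no longer passed (adjusted p = 0.11). PMAIP1 lies on the forward strand of chromosome 18 (59899948 to 59904306), with no other gene overlapping it.

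BID links death receptors to mitochondria, since caspase-8 cleaves its protein into an active fragment. Its level was 12.8, 13.2 and 13.6 CPM in shfirefly and 16.5, 14.7 and 15.1 CPM in shSIRT1. The ranges did not overlap, and the rise of 1.17-fold passed the test by a small margin (13.2 ± 0.440 to 15.4 ± 0.914 CPM, SD, n = 3; adjusted p = 0.023, with a log2 fold change of 0.23 ± 0.08 SE). The call of BID was lost without shfirefly replicate 1 (adjusted p = 0.098), without shfirefly replicate 2 (0.051), without shSIRT1 replicate 1 (0.13), with upper-quartile scaling (0.072) and with DESeq2 (0.084). BID was also the member on which the authors' deposited table differed, with a log2 fold change of 0.225 and an adjusted p of 0.081. In that table the other 6 genes that changed here passed in the same direction, and 40.1% of the genes with an adjusted p did. BID is on chromosome 22 (17734138 to 17774770, reverse strand).

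**Figure D2:**
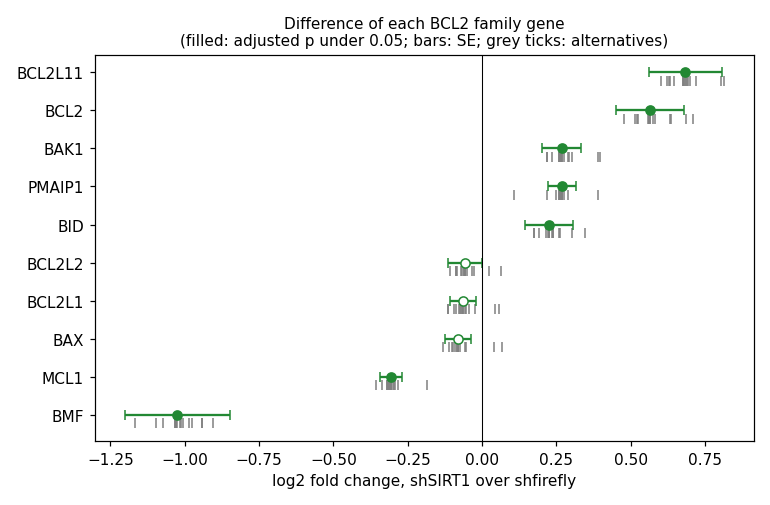
Log2 fold change of shSIRT1 over shfirefly for the 10 genes (x axis), with SE bars, filled where the adjusted p was under 0.05. Grey ticks give the same value under 16 alternative settings, and those of BCL2L1, BCL2L2 and BAX fall on both sides of 0.

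Division by exon length allowed levels to be compared between genes. MCL1 led in both groups, with 78.1 ± 2.42 CPM per kb of exon in shfirefly and 63.1 ± 0.741 in shSIRT1 (SD, n = 3). BCL2L1 came next at 54.1 ± 3.12 and 51.7 ± 1.92, then BAX at 39.7 ± 1.75 and 37.5 ± 1.14 and PMAIP1 at 22.2 ± 0.0761 and 26.8 ± 0.739 CPM per kb. Among the 4 BH3-only members PMAIP1 was the most abundant per length. BAK1, BCL2L2 and BID followed, in the same order in both groups. The 3 genes with the largest changes were also the 3 least abundant per length: BCL2L11 (0.862 ± 0.0692 in shfirefly and 1.39 ± 0.220 in shSIRT1), BMF (0.640 ± 0.0488 and 0.313 ± 0.0515) and BCL2 (0.488 ± 0.0456 and 0.722 ± 0.0782). BMF ranked above BCL2 in shfirefly and below it in shSIRT1, and no neighbours in either order overlapped between libraries by this length. Length here is the union of annotated exons. With the length of the longest transcript BAX stood at 75.6 in shfirefly, between MCL1 (86.8) and BCL2L1 (68.6), and at 71.4 in shSIRT1, above MCL1 (70.2) and BCL2L1 (65.6), so the order of these 3 depends on the length used. By that length the mean of BCL2 (0.769) stood above that of BMF (0.744) in shfirefly too, but their libraries overlapped. Whether these 2 genes changed places is therefore not resolved by that length. BAK1 (10.5) and BCL2L2 (10.3) also overlapped in shfirefly.

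**Figure D3:**
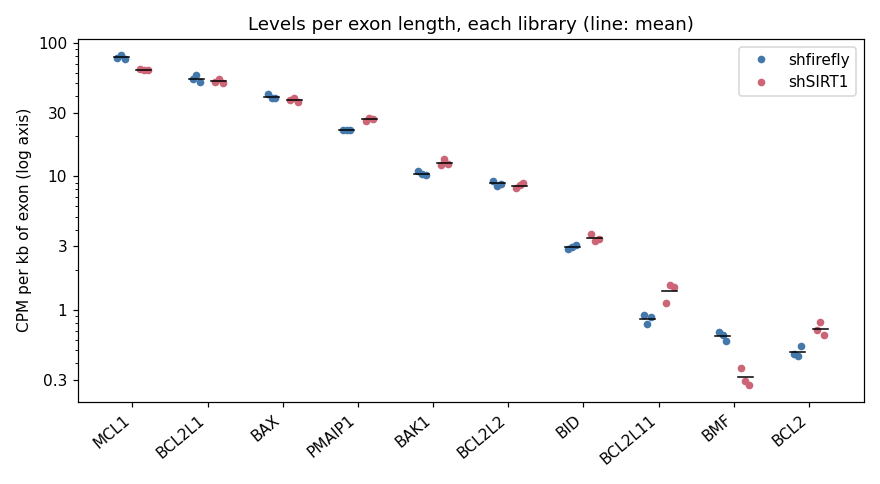
CPM per kb of exon for each gene and library (points; log axis), with group means as lines. MCL1 is highest and BCL2, BMF and BCL2L11 are lowest. BMF and BCL2 change places between the groups by exon length, but by the length of the longest transcript they overlap in shfirefly.

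Of the summed per-length level of the 10 genes, the 4 survival genes held 64.0% to 66.0% in shfirefly and 59.9% to 60.4% in shSIRT1. MCL1 alone went from 35.8% ± 0.543 to 30.6% ± 0.634 (SD, n = 3). The 4 BH3-only members held 11.9% to 12.6% and 15.3% to 15.8%, mostly PMAIP1. The BH3-only genes BAD and BBC3 lie outside the 10, and both fell. BAD had 49.8 ± 2.44 CPM in shfirefly and 42.5 ± 0.563 CPM in shSIRT1 (SD, n = 3), over 1708 bases of exon. PMAIP1 had 49.7 CPM in shfirefly over 2235 bases. The rise of the BH3-only share was measured for the members alone. Pore-forming genes held 22.1% to 23.9% and 24.0% to 24.7%. These shares describe the transcripts of the 10 genes alone and carry no test, because the genes were chosen with earlier results known. With the length of the longest transcript the survival share was 58.4% in shfirefly and 54.4% in shSIRT1.

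Ratios of counts between 2 genes in the same library do not depend on how libraries are scaled. For every 100 MCL1 counts there were 14.7, 14.05 and 14.95 PMAIP1 counts in shfirefly and 20.9, 22.3 and 21.97 in shSIRT1. BCL2L11 counts per 100 MCL1 counts were 1.79, 1.48 and 1.78 in shfirefly and 2.71, 3.69 and 3.66 in shSIRT1. BAK1 per 100 MCL1 went from 6.82 ± 0.318 to 10.2 ± 0.631 and BCL2 per 100 MCL1 from 1.69 ± 0.205 to 3.08 ± 0.319 (SD, n = 3). All 4 ratios to MCL1 were higher in every shSIRT1 library than in every control. MCL1 itself fell 1.24-fold, so a gene that did not change also gains on it. The 4 numerators were all called higher, so the direction of these ratios followed from the single-gene results. The 2 BH3-only genes with opposite changes differed most, with 165 ± 19.0 BCL2L11 counts per 100 BMF counts in shfirefly and 561 ± 162 in shSIRT1. BAX per 100 BCL2L1 counts overlapped between groups, at 52.8 to 60.4 in shfirefly and 55.9 to 57.7 in shSIRT1. The pairs were chosen after the values were seen, so they are given without a test.

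**Figure D4:**
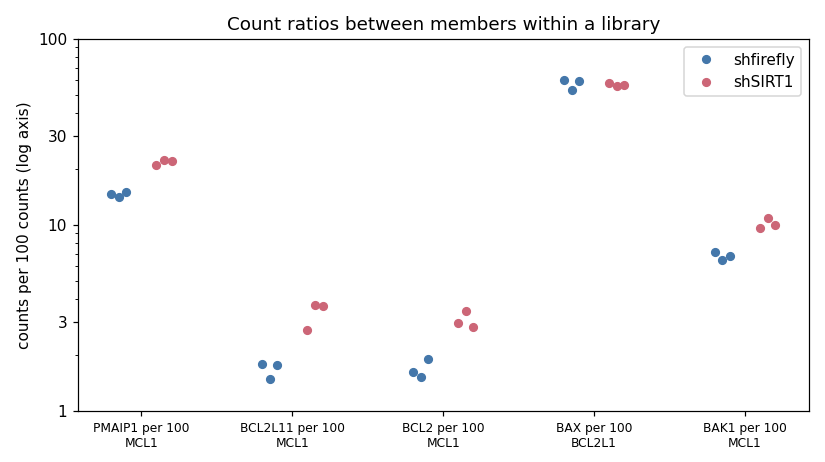
Counts of 1 gene per 100 counts of another in each library (points; log axis). The 4 ratios to MCL1, which itself fell, are higher in all shSIRT1 libraries, and BAX per 100 BCL2L1 overlaps between the groups.

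The rest of the family was measured from a list of 11 genes, of which 5 had enough counts to test. Of these 3 fell and 1 rose, beside 26% and 26.8% of all genes tested. BBC3, which encodes the BH3-only protein PUMA, fell 1.53-fold, from 11.8 ± 0.769 to 7.70 ± 0.168 CPM (SD, n = 3; adjusted p = 1e-05, with a log2 fold change of -0.62 ± 0.09 SE). BCL2L13, a mitochondrial family member, fell by 0.30 on the log2 scale and BCL2L12 rose by 0.26. BAD, a BH3-only gene whose protein is silenced by phosphorylation, was the other member that fell (log2 fold change -0.23 ± 0.05 SE). HRK had 3.41 ± 0.294 CPM in shfirefly and 2.66 ± 0.177 CPM in shSIRT1 (SD, n = 3; adjusted p = 0.058). The median of the 5 was -0.30. BAD and HRK were named after their values were seen. Together with the members, 3 of the 7 tested BH3-only genes rose (BCL2L11, BID and PMAIP1) and 3 fell (BMF, BBC3 and BAD).

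Partners and turnover factors of the family leaned lower: 4 of 17 rose, 9 fell and 4 did not pass, with a median of -0.09. The 13 that passed stand beside 52.8% of all genes tested, 26.8% higher and 26% lower. FKBP8, a mitochondrial anchor that binds BCL2 and BCL-XL, fell 1.67-fold (322 ± 16.9 to 193 ± 6.49 CPM). BNIP3L, a mitophagy receptor induced by low oxygen, fell 1.62-fold (1017 ± 45.6 to 629 ± 15.6 CPM; SD, n = 3). USP9X, a deubiquitinase that stabilises MCL1 protein, rose 1.58-fold (267 ± 6.57 to 422 ± 11.1 CPM, SD, n = 3; adjusted p = 3.6e-12, with a log2 fold change of 0.66 ± 0.04 SE). FBXW7, part of a ubiquitin ligase that targets MCL1, rose 1.22-fold. With scaling by library totals alone, 8 of the 17 rose and 4 fell.

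Downstream of the mitochondrion, 8 of 15 apoptosome and caspase genes rose and none fell, with a median of 0.21. The share that passed, 8 of 15, was close to the 52.8% of all genes tested (26.8% higher, 26% lower). The count of falls was 0 with edgeR, also at an unadjusted p under 0.05, and 0 with DESeq2, and it was 1 with upper-quartile scaling, with the GC and length offset, and without shfirefly replicate 2 or 3. AIFM1, which encodes a mitochondrial flavoprotein, rose 1.44-fold (38.0 ± 3.78 to 54.8 ± 2.91 CPM) and the effector caspase gene CASP6 1.40-fold (14.2 ± 0.820 to 19.9 ± 0.724 CPM; SD, n = 3). Among inhibitor-of-apoptosis genes 3 of 5 tested rose and 1 fell, beside the same shares of all genes, with a median of 0.20. BIRC5 (survivin), which also acts in mitosis, rose 1.29-fold and BIRC6 1.22-fold. BIRC3 had 120 counts in shfirefly and 63 in shSIRT1 (adjusted p = 0.013, with a log2 fold change of -0.90 ± 0.29 SE). Its call was lost with DESeq2 (adjusted p = 0.056), without shfirefly replicate 3 (0.069) and without shSIRT1 replicate 2 (0.052).

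Among genes of death receptors, their adaptors and regulators, 4 of 9 tested were higher and 4 lower (median -0.15). Of all genes tested, 26.8% were higher and 26% lower. Of the receptors alone, FAS rose (log2 fold change 0.25) and TNFRSF25 did not pass. TNFRSF1A (-0.39), TNFRSF10B (-0.49) and TNFRSF10C (-1.14, with 110 counts in shfirefly and 49 in shSIRT1) fell. FAS, TNFRSF1A, TNFRSF10C and TNFRSF25 were named after their values were seen. The caspase-8 regulator CFLAR rose 1.35-fold (24.6 ± 0.799 to 33.3 ± 3.47 CPM) and the adaptor gene FADD 1.21-fold. The TRAIL receptor gene TNFRSF10B fell 1.41-fold (144 ± 11.01 to 102.1 ± 4.99 CPM; SD, n = 3) and the adaptor gene TRADD 1.32-fold.

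Transcription factors known to act on family genes leaned lower, with 4 of 15 higher and 9 lower (median -0.29). Of all genes tested, 26.8% were higher and 26% lower. DDIT3, which encodes the stress factor CHOP, fell 2.99-fold, from 53.5 ± 4.14 to 17.9 ± 0.220 CPM (SD, n = 3; adjusted p = 3e-14, with a log2 fold change of -1.58 ± 0.06 SE). Exons of DDIT3 overlap those of AC022506.1 on the same strand and of MARS and MBD6 on the other. With the strand setting not given, the level of DDIT3 may hold their reads and is uncertain. ATF3, another stress-induced factor, fell 1.96-fold. E2F1, a driver of S-phase genes, rose 1.605-fold (19.7 ± 1.68 to 31.6 ± 1.25 CPM) and MITF, the melanocyte lineage factor, 1.58-fold (76.6 ± 4.99 to 121 ± 1.55 CPM; SD, n = 3).

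**Figure D5:**
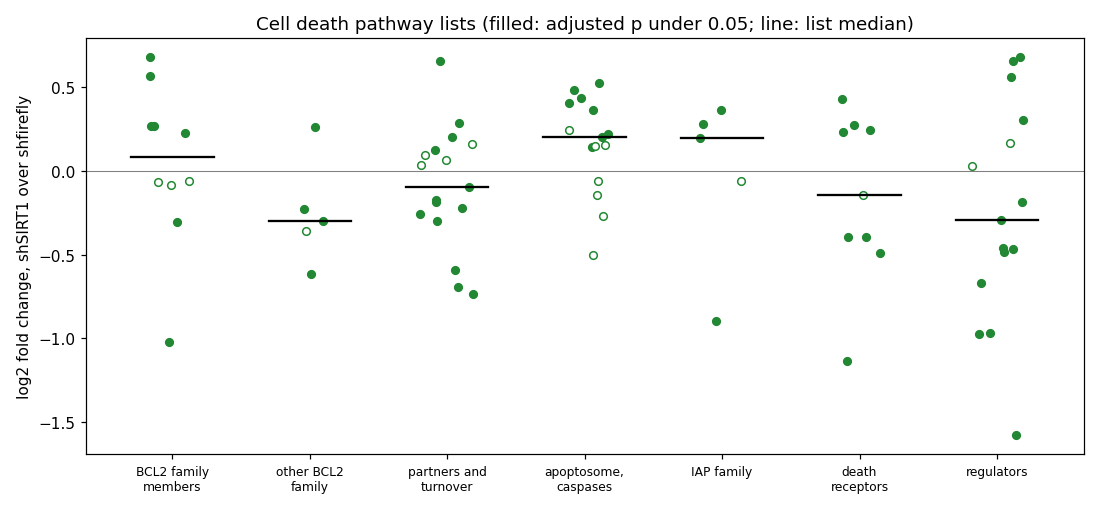
Log2 fold change of each tested gene in the BCL2 family and in 6 further lists (points, filled where the adjusted p was under 0.05), with list medians as lines. Apoptosome and caspase genes lie mostly above 0, with a median of 0.21, and regulators mostly below it.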

How the data were processed

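RNA was sequenced from 3 shfirefly and 3 shSIRT1 samples. The kit was TruSeq Stranded mRNA, per the labels' protocols. Trimmomatic, STAR, DESeq2 and GRCh38 are named in the submitters' processing notes; for versions, read counter, annotation and strand setting the answer is: not given in the sources used here. The deposited table holds raw read counts per gene, normalized counts that the authors rounded (a score, as are the authors' means of them), and the authors' linear fold change (ratio), log2 fold change, p-value and adjusted p-value, per the file headers. Only raw counts were tested. Columns were matched to samples by name.

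Genes were kept by filterByExpr (16591 tested), scaled by TMM and tested with edgeR 4.0.16 (estimateDisp, robust glmQLFit, glmQLFTest) on group alone, with Benjamini-Hochberg adjustment over all genes and a threshold of 0.05. Counts ranged from 24993064 to 32044191 per library. SEs are the absolute log2 fold change over the square root of F. The 95% intervals use the total degrees of freedom of the fit, prior and residual together. Replicates differed by more than sampling noise (chi-square per gene 2.82 to 6.10 within groups). Replicate 3 of shfirefly stood apart, at 5.80 and 6.10 from the other controls, which were 2.82 from each other. It was also nearer to the shSIRT1 libraries (57.4 to 66.7) than the other controls were (76.5 to 89.7). The design text calls them biological; where they were not separate cultures, p-values measure only their spread. Positions and lengths came from GENCODE 29 (58504 identifiers matched), promoters from RefSeq. The procedure was tested on simulated data in which 100 genes changed by 1 and 100 by 0.5 on the log2 scale. It recovered 82% and 61% of them with the right sign, with 16 false calls, so small changes can be missed. Far fewer genes changed in the simulation than were called in these data.

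The members and the 6 further lists were chosen with earlier results of these data known. Named genes were all members, SIRT1 and EPAS1, and, per list, the 2 called genes at most in each direction with the largest change and a mean of at least 1 CPM; others are marked as named later. Results of 1 regulator gene and of 1 planned list are not reported here. Alternatives were RLE, upper-quartile and library-total scaling, DESeq2 1.42.0, no filter, 1 CPM in 3 libraries, no robust estimation, a replicate block, a GC and length offset, leaving out each library, and, chosen after seeing the data, leaving out both libraries numbered 3.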

Additional observations from a re-analysis of the deposited data

How the results depend on the processing

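BCL2, BCL2L11, BAK1, MCL1 and BMF kept their direction and their call in all 16 alternatives. Scaling by library totals alone shifted the transcriptome-wide median (log2) from 0.00468 to 0.13 and gave 6225 higher and 3021 lower genes in place of 4449 and 4311. There BCL2L1 (0.057), BCL2L2 (0.064) and BAX (0.040) turned positive without passing, all below that shifted median. Partners and turnover factors then counted 8 higher and 4 lower. With the GC and length offset the same 3 genes were also positive (BCL2L1 0.045, BCL2L2 0.023, BAX 0.068), PMAIP1 was no longer called (0.11), 1 caspase or apoptosome gene fell and 2 inhibitor-of-apoptosis genes fell. Upper-quartile scaling called BCL2L1 (-0.11) and BAX (-0.13) lower, so that 4 members fell, lost BID (0.18), and left 1 apoptosome gene lower. DESeq2 lost BID (0.23) and left 0 inhibitor-of-apoptosis genes lower. With at least 1 CPM in 3 libraries BIRC3 was filtered out and so not tested, which left 0 inhibitor-of-apoptosis genes lower. Without both libraries numbered 3, 0 inhibitor-of-apoptosis genes were lower as well. For the other shifts the cause was not tested.

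Leaving out 1 library at a time gave log2 fold changes of 0.18 to 0.26 for BID, -0.12 to -0.022 for BCL2L1 and -0.11 to -0.052 for BAX, 2 to 4 members lower, 0 to 1 apoptosome genes lower and 0 to 1 inhibitor-of-apoptosis genes lower. With the replicate block, 5 members rose and 2 fell, as without it, and 4711 genes rose and 4465 fell. The numbers did not pair the samples: correlations of same-numbered samples' deviations ran from -0.07 to 0.13, those of other pairs from -0.15 to 0.17, and not every sample correlated best with its own number. The block changed no member's call. Depth limits BMF most, with 150 counts over the 3 shSIRT1 libraries.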

Other observations

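Several family genes outside the 10 were at or near the limit of detection. BCL2A1, a survival gene of blood cells, had 8 counts over the shfirefly libraries and 3 over the shSIRT1 libraries, and BCL2L10 had 1 and 0. BIK, a BH3-only gene, had 12 and 11 counts, and BOK, a pore-forming relative of BAX, had 35 and 20. None of these was tested, and no fold is given. The BAX promoter window (250 bases before the start, chromosome 19, 48954625 to 48954874) held 9 matches to the HIF core ACGTG on either strand, overlapping matches counted separately. A CACGTG site reads the same on both strands and so counts once on each, which makes the distinct sites fewer than the matches. The last 60 bases of that window are annotated as exon, and 4 of the matches lay in the 190 bases before it. BAX did not pass the test.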
